A study of Mus musculus with 50 samples.

Results

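Inmt, Galnt15 and Dok5 are 3 of the 52636 genes in the deposited count table of 50 mouse thyroid libraries. They were matched by Ensembl ID (ENSMUSG00000003477, ENSMUSG00000021903 and ENSMUSG00000027560). They were picked because their levels differed between thyroids given antibodies against the Notch ligands Jag1 and Jag2 and control thyroids at 5 days, so their 5-day values are given as a description with no test. The working label for the 3 genes was stromal genes. Within groups, levels of fibroblast markers moved with Inmt and Galnt15 from library to library, and less with Dok5. This was not particular to fibroblast markers. Skeletal muscle markers moved with Galnt15 to a like degree, and Schwann cell markers with Inmt. Between groups at 5 days, the summed fibroblast markers were not higher where Inmt and Galnt15 were. At 7 days both genes were again higher than in their own controls, and the summed markers overlapped. The median log2 difference of the markers was then 0.26, against 0.01 over all genes. The fibroblast markers Pdgfra and Dcn had higher medians there after the antibodies against Jag1 and Jag2, with ranges that overlapped the controls.

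The libraries came from male C57BL/6 mice, aged 10 to 14 weeks per the labels, and fell into 10 groups of 5. Every mouse received 1 intraperitoneal antibody dose. Controls (RW) received an anti-ragweed isotype antibody at 40 mg/kg. The aJ1aJ2 groups received anti-Jag1 and anti-Jag2 at 20 mg/kg each, the aN1aN2 groups anti-Notch1 at 5 mg/kg and anti-Notch2 at 10 mg/kg, and the aN1aN2aN3 group these 2 doses plus anti-Notch3 at 20 mg/kg. RW, aJ1aJ2 and aN1aN2 thyroids were taken at 15 hours and at 5 days. At 7 days there were 2 sets, the first with RW and aJ1aJ2 and the second with aJ1aJ2 and aN1aN2aN3. For the second of these sets, control thyroids were not analysed here. The series text also mentions thyroid hormone injections, and no label says which mice had them. Replicates are numbered thyroids of a group, and nothing more says how separate they are, so p-values measure the spread between these samples.

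Notch receptors are activated by Jagged and Delta-like ligands on neighbouring cells, and their cleaved intracellular part acts on target genes through the DNA-binding protein RBPJ. Inmt encodes indolethylamine N-methyltransferase, which moves methyl groups from S-adenosylmethionine to tryptamine and related amines. Galnt15 encodes a member of the polypeptide N-acetylgalactosaminyltransferase family, whose enzymes start mucin-type O-glycans on proteins. Dok5 encodes an adaptor of the docking protein family, which binds activated receptor tyrosine kinases and passes their signal on.

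The promoters of Inmt and Galnt15 are printed, with the RBPJ core motif marked in each window. The 250 bases before each start are from RefSeq (GRCm38.p6), written 5′ to 3′ on the gene's strand. The capitals mark TGGGAA, searched on both strands together with its reverse complement TTCCCA. The table used matched 2 of the 3 genes, and Dok5 is named only.
Inmt (chr6:55174991-55175240, minus strand): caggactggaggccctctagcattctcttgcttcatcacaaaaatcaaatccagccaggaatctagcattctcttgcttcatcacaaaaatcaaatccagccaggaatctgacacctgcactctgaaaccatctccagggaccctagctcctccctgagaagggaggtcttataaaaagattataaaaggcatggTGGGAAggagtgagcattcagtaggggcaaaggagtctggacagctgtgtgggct
Galnt15 (chr14:32028853-32029102, plus strand): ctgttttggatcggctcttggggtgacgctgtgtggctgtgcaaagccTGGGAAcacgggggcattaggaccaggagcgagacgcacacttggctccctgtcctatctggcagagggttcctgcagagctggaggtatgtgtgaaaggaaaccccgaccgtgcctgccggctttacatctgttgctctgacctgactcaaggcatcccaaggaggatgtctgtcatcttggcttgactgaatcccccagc
The motif starts 55 bases upstream of the Inmt start and 202 bases upstream of the Galnt15 start. It is present in 7094 of 32851 promoter windows of this length (21.6%), so a match in a promoter is common and describes only the sequence.

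Total counts per library ranged from 15.3 to 52.8 M. Thyroglobulin (Tg), the precursor of thyroid hormone and the defining thyrocyte gene, took 0.450 to 42.4% of counts. At 5 days, RW replicate 3 (0.450%) and aJ1aJ2 replicate 3 (2.39%) stood apart, and the differences at that time are given with and without them. In the second 7-day set, Tg was at 1.15 to 2.82% in aJ1aJ2 and at 3.73 to 6.50% in aN1aN2aN3. The summed level of 9 skeletal muscle markers ranged from 307 to 264613 CPM, so muscle RNA was present in unequal amounts. CPM here means counts per M counts of a library, with the library size scaled by TMM over the 50 libraries. That size was counted over genes that passed the count filter, so CPM is not a plain share of all counts. In whole tissue, fewer cells of a type and less RNA per cell cannot be told apart.

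Counts over all libraries were 62959 for Inmt, 63172 for Galnt15 and 7801 for Dok5. On the deposited FPKM scale, which divides by gene length, the order of levels within a library was Inmt, then Galnt15, then Dok5 in 50 of 50 libraries. The median ratio of FPKM levels was 5.37 for Inmt over Galnt15 and 33.5 for Galnt15 over Dok5. All levels below are in CPM after TMM scaling over the 50 libraries, and all differences are log2 fold changes with their standard error (SE).

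**Figure D1:**
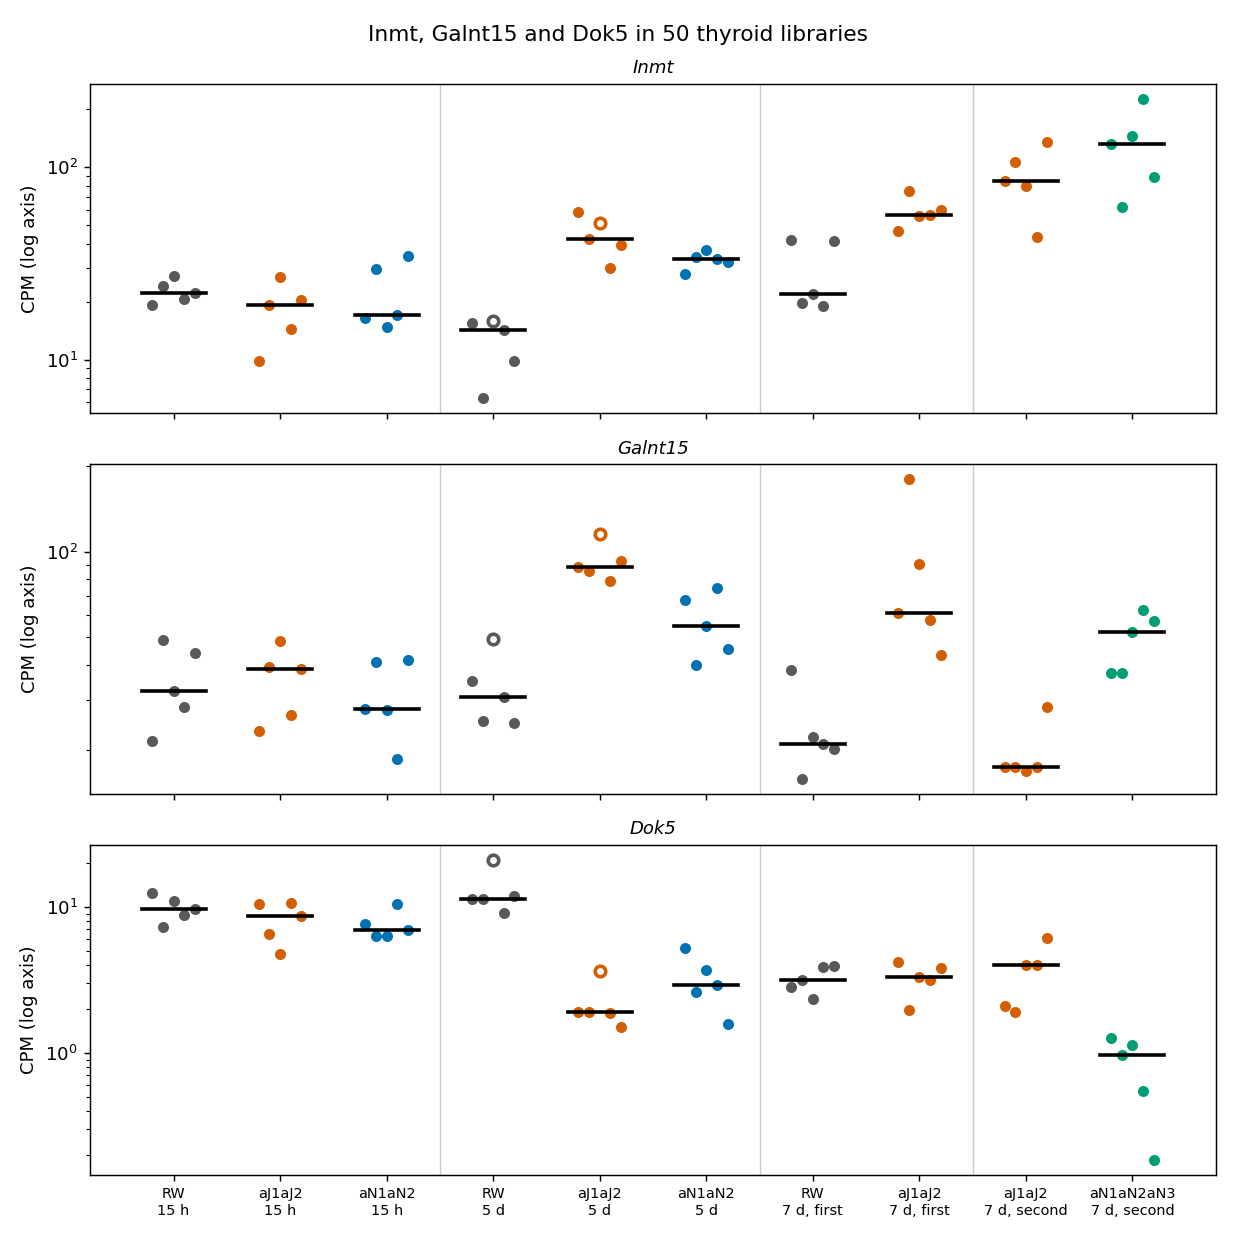
Level of each gene (CPM, log axis) in every library of the 10 groups, with a bar at the group median and open circles for the 5-day libraries in which Tg was below 5% of counts. Inmt medians run from 14.3 in RW at 5 days to 132 in aN1aN2aN3, and Dok5 medians from 0.970 in aN1aN2aN3 to 11.3 in RW at 5 days.

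At 15 hours, none of the antibodies had moved the 3 genes beyond the spread between replicates. Inmt was at 19.2, 24.0, 27.2, 20.6 and 22.2 CPM in RW (22.6 ± 3.11, SD, n = 5). It was at 9.81, 19.2, 26.8, 14.5 and 20.4 in aJ1aJ2 (18.1 ± 6.41) and at 16.4, 29.6, 14.8, 17.2 and 34.5 in aN1aN2 (22.5 ± 8.94). The 3 groups overlapped, and the aN1aN2 libraries spread most widely. Galnt15 was at 21.5 to 49.0 CPM in RW (median 32.4), 23.4 to 48.6 in aJ1aJ2 (median 38.7) and 18.6 to 41.7 in aN1aN2 (median 27.9), again overlapping. Dok5 was at 7.33 to 12.5 CPM in RW (median 9.66), 4.72 to 10.7 in aJ1aJ2 (median 8.72) and 6.30 to 10.5 in aN1aN2 (median 6.91).

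The log2 differences of aJ1aJ2 from RW at 15 hours were -0.32 ± 0.28 (SE) for Inmt, 0.01 ± 0.27 for Galnt15 and -0.27 ± 0.23 for Dok5. By edgeR's quasi-likelihood test with Benjamini-Hochberg adjustment over all genes, 0 of 3 passed an adjusted p of 0.05, against 0.573% of the 18513 genes tested. For aN1aN2 the differences from RW were -0.01 ± 0.28, -0.16 ± 0.27 and -0.39 ± 0.23, with 0 of 3 called against 1.68% of genes. Between aN1aN2 and aJ1aJ2, 0 of 3 were called against 0.130%. In each of these comparisons 0 of the 3 genes had an unadjusted p below 0.05, and DESeq2 called 0. By the ratio of deposited counts to FPKM, the aN1aN2 libraries of 15 hours fall in another block than RW and aJ1aJ2 of that time. No label names this block, and what it stands for is not known. Block and antibody cannot be told apart there. The sign of the Inmt difference between aN1aN2 and RW flips with the scaling (0.01 with RLE size factors).

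At 5 days, where the genes were picked, Inmt and Galnt15 were higher and Dok5 lower in aJ1aJ2 than in RW. Inmt was at 15.4, 6.29, 15.9, 14.3 and 9.89 CPM in RW (12.3 ± 4.13, SD, n = 5) and at 58.7, 42.1, 51.2, 29.8 and 39.3 in aJ1aJ2 (44.2 ± 11.1). The lowest aJ1aJ2 library lay above the highest RW library, and the log2 difference was 1.83 ± 0.25 (SE), a 3.57-fold higher level. Galnt15 was at 35.2, 25.4, 49.4, 30.9 and 25.0 CPM in RW (33.2 ± 10.0) and at 88.1, 85.3, 115, 78.7 and 93.1 in aJ1aJ2 (92.1 ± 13.8). Its groups did not overlap either, with a log2 difference of 1.47 ± 0.22. In TMM-scaled CPM, the highest Galnt15 library of both groups was replicate 3, the one low in Tg. The scaling raised levels more in RW replicate 3 (Tg at 0.450% of counts and 7968 CPM) than in RW replicate 5 (40.3% and 491626 CPM). The rank of RW replicate 3 was not tested on unscaled counts.

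Dok5 went the other way at 5 days. It was at 11.3, 11.3, 20.9, 9.08 and 11.9 CPM in RW (12.9 ± 4.62) and at 1.90, 1.91, 3.64, 1.86 and 1.49 in aJ1aJ2 (2.16 ± 0.847). Every aJ1aJ2 library was below every RW library, and the log2 difference was -2.58 ± 0.36. Dok5 too was highest in replicate 3 of each group. Groups without overlap were found for 3.75% of the 18434 genes tested at 5 days, and 0.179% (33 genes) had an edgeR adjusted p below 0.05, from which nothing is read here, since the 3 genes were picked from this contrast. Without the low-Tg libraries the differences were 1.89 for Inmt, 1.57 for Galnt15 and -2.60 for Dok5.

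The aN1aN2 group at 5 days was set against the same RW libraries and so is no separate evidence. Inmt was at 28.0, 34.1, 37.3, 33.3 and 32.2 CPM in aN1aN2 (33.0 ± 3.36), above every RW library and the tightest of the 5-day groups for this gene. Galnt15 was at 67.6, 39.8, 54.9, 74.8 and 45.5 CPM (56.5 ± 14.7), which overlapped RW. Dok5 was at 5.22, 2.60, 3.68, 2.91 and 1.59 CPM (3.20 ± 1.36), below every RW library. Groups without overlap were found for 2.10% of genes in that comparison. The differences from RW were 1.40 ± 0.24 for Inmt, 0.76 ± 0.22 for Galnt15 and -2.02 ± 0.35 for Dok5 (without the low-Tg libraries 1.51, 0.95 and -1.77).

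Set directly against aJ1aJ2, with which the aN1aN2 thyroids share the time but not the dose, Galnt15 was lower in aN1aN2, at -0.71 ± 0.22, with groups that did not overlap. Inmt (-0.43 ± 0.24) and Dok5 (0.56 ± 0.34) overlapped between the 2 antibody pairs. Without the low-Tg libraries the differences were -0.63 for Galnt15, -0.38 for Inmt and 0.82 for Dok5. Groups without overlap were found for 0.608% of genes in that contrast.

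**Figure D2:**
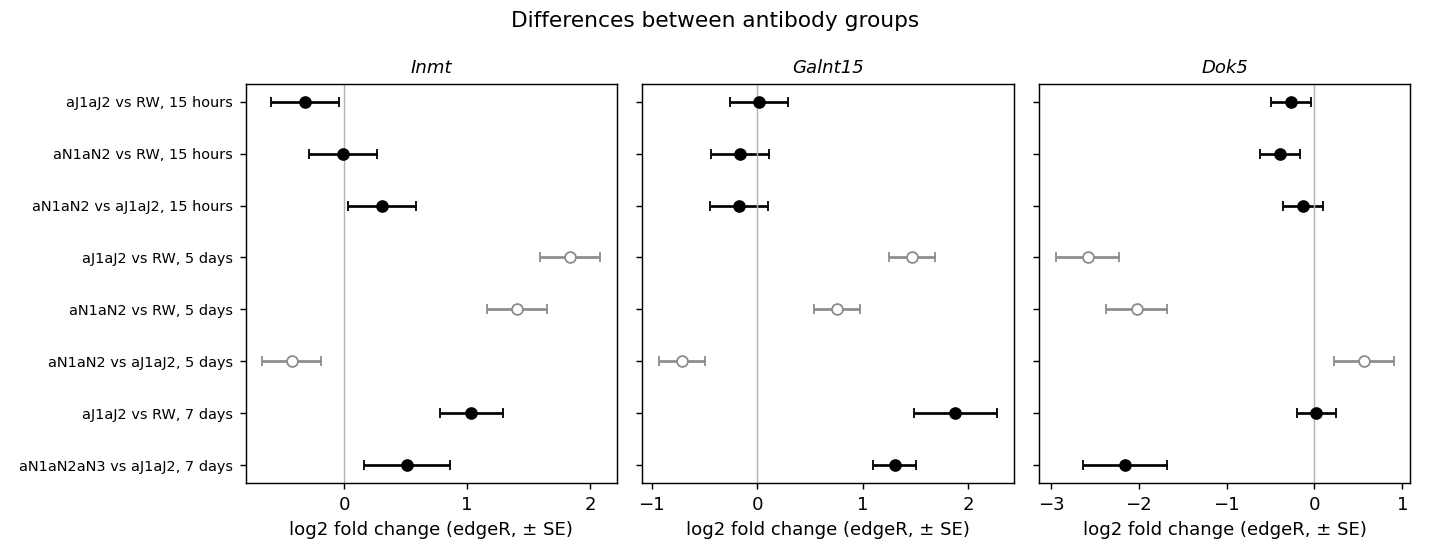
Log2 fold change of each gene in each comparison (points, bars of ± 1 SE), with grey open points for the 5-day comparisons, which picked the genes and carry no test. Inmt and Galnt15 lie above 0 against RW at 5 days and in the first 7-day set (1.03 and 1.87), and Dok5 lies near 0 in that set (0.02).

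The first 7-day set measured the same antibody pair against its own RW libraries, which the choice of genes did not use. Inmt was at 41.7, 19.6, 21.9, 18.9 and 41.4 CPM in RW (28.7 ± 11.8, SD, n = 5) and at 46.7, 75.3, 55.6, 56.7 and 60.1 in aJ1aJ2 (58.9 ± 10.4). All 5 aJ1aJ2 libraries were above all RW libraries, although RW replicates 1 and 5 came close to the lowest of them. The log2 difference was 1.03 ± 0.26 (SE), with an edgeR p of 0.00195 and an adjusted p of 0.170. Galnt15 was at 38.2, 15.8, 22.3, 21.1 and 20.3 CPM in RW (23.5 ± 8.55) and at 60.9, 179.8, 90.8, 57.3 and 43.1 in aJ1aJ2 (86.4 ± 55). Here too the groups did not overlap, and aJ1aJ2 replicate 2 was far above the others. The log2 difference was 1.87 ± 0.39, with an edgeR p of 0.000585 and an adjusted p of 0.128.

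These differences did not pass the adjusted threshold. By edgeR, 0% of the 16954 genes tested in this set did, while 1968 had an unadjusted p below 0.05, Inmt and Galnt15 among them. DESeq2 called 476 of the 21306 genes it tested, with adjusted p of 0.0127 for Inmt and 0.000328 for Galnt15. Groups without overlap and a higher aJ1aJ2 level were found for 1.68% of genes, and for 2 of the 3 genes described here. Leaving out aJ1aJ2 replicate 2 gave Galnt15 a difference of 1.41 with an edgeR adjusted p of 0.0851. That library had the highest summed muscle markers of the set, at 122769 CPM against 1502 to 25173 in RW. It also had the highest summed adipocyte markers (6220 CPM, against 1027 to 2915 in RW). Its Tg was the lowest of the set, at 8.87% of counts against 22.9 to 36.5% in RW. The part of this library's composition in the result was not tested.

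Dok5 did not show the 5-day difference in this set. It was at 2.84, 3.15, 2.34, 3.89 and 3.96 CPM in RW (3.24 ± 0.694) and at 4.18, 1.98, 3.29, 3.17 and 3.80 in aJ1aJ2 (3.28 ± 0.834). The groups overlapped almost fully, with a log2 difference of 0.02 ± 0.22 and an edgeR adjusted p of 0.976, and the sign turns with library totals in place of TMM (-0.07). The RW libraries themselves were low: 2.34 to 3.96 CPM, against 9.08 to 20.9 in RW at 5 days and 7.33 to 12.5 at 15 hours. RW at 7 days overlapped the range of aJ1aJ2 at 5 days (1.49 to 3.64). Time, set and any hormone treatment cannot be told apart in this difference between controls.

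Whether the aJ1aJ2 difference itself was larger at 7 days than at 15 hours was tested as an interaction. It was 1.33 ± 0.35 (SE) for Inmt, with an edgeR p of 0.00123 and an adjusted p of 0.113. For Galnt15 it was 1.82 ± 0.47, with an edgeR p of 0.00103 and an adjusted p of 0.105. For Dok5 it was 0.26 ± 0.35, with an edgeR adjusted p of 0.790. So 0 of 3 passed by edgeR, against 0.314% of genes. An unadjusted edgeR p below 0.05 was found for 2 of 3, and for 2010 of the 18487 genes tested. DESeq2 called the same 2, among 380 genes. Leaving out RW replicate 1 of the first 7-day set gave Galnt15 2.06 with an edgeR adjusted p of 0.0438, so its side of the threshold depends on that library.

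In the second 7-day set, Galnt15 was higher and Dok5 lower after the 3 anti-receptor antibodies than after the 2 anti-ligand antibodies. Galnt15 was at 17.5, 17.5, 16.9, 17.5 and 28.5 CPM in aJ1aJ2 (19.6 ± 5.01, SD, n = 5) and at 37.5, 37.4, 52.3, 62.3 and 57.1 in aN1aN2aN3 (49.3 ± 11.4). It was higher in 5 of 5 aN1aN2aN3 libraries, by 1.30 ± 0.21 (SE), with an edgeR adjusted p of 0.00250. Leaving out each library in turn left the edgeR adjusted p between 0.00142 and 0.00884.

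Dok5 was at 2.09, 1.90, 3.97, 4.01 and 6.11 CPM in aJ1aJ2 (3.62 ± 1.72) and at 1.27, 0.970, 1.13, 0.549 and 0.185 in aN1aN2aN3 (0.821 ± 0.446). It was lower in 5 of 5 aN1aN2aN3 libraries, at a log2 difference of -2.15 ± 0.48, with an edgeR adjusted p of 0.0104. The aN1aN2aN3 values rest on 5 to 39 counts per library and 125 in all, against 404 in aJ1aJ2. Without each library in turn the adjusted p was 0.0109 to 0.0298.

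Inmt had its highest group medians of the series in this set. It was at 84.9, 106, 79.7, 43.6 and 135 CPM in aJ1aJ2 (89.9 ± 33.9) and at 132, 62.5, 145, 227 and 88.7 in aN1aN2aN3 (131 ± 63.1). The groups overlapped, and the difference of 0.51 ± 0.35 had an edgeR adjusted p of 0.322. Of the 3 genes, 1 was called higher and 1 lower, in a comparison where 19.6% of the 18450 genes tested were called (9.19% higher and 10.4% lower) and 15.0% had groups without overlap. With so many genes called, 2 of 3 is a small count to read. Without RW libraries, the set shows how the antibody sets differ and not which of them moved from control.

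The same aJ1aJ2 doses at the same time gave different Galnt15 levels in the 2 sets, 43.1 to 179.8 CPM in the first and 16.9 to 28.5 in the second, with no overlap. The second-set range lies within that of first-set RW (15.8 to 38.2). Inmt and Dok5 overlapped between the 2 aJ1aJ2 groups. Set and library composition cannot be told apart here, and no test was made across sets.

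Ordered by median over the 10 groups, Inmt ran from RW at 5 days (14.3 CPM) through the 15-hour groups and RW at 7 days (17.2 to 22.2), then aN1aN2 (33.3) and aJ1aJ2 (42.1) at 5 days, to the 7-day antibody groups (56.7 to 132). The single gap between neighbours in this order lay between RW at 15 hours and aN1aN2 at 5 days. All other neighbours overlapped. Galnt15 ran from aJ1aJ2 of the second 7-day set (17.5) to aJ1aJ2 at 5 days (88.1), and all its neighbours overlapped. Dok5 had gaps between aN1aN2aN3 (0.970) and aJ1aJ2 at 5 days (1.90), and between aJ1aJ2 of the second 7-day set (3.97) and aN1aN2 at 15 hours (6.91). These orders cross sets and blocks and were not tested. The highest Inmt medians (84.9 and 132) come from the second 7-day set, where Tg was at 1.15 to 6.50% of counts.

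Enzymes and adaptors near the 3 genes were counted from lists. Around Inmt, 10 genes of the methyl donor cycle were tested at 15 hours. Mat1a, which makes S-adenosylmethionine, was lower with both antibody pairs, at -1.75 ± 0.35 (SE, edgeR adjusted p = 0.0388) from 8.36 CPM in RW to 2.49 in aJ1aJ2, and at -2.07 ± 0.35 (edgeR adjusted p = 0.00928) to 2.00 in aN1aN2. It was the 1 gene of that list called in each comparison, the list medians were -0.07 and 0.06, and the comparisons share the RW libraries. Over all genes, 0.573% and 1.68% were called. Tdo2, which opens the indole ring of tryptophan, was 1 of 7 genes of tryptamine and indole metabolism called in aN1aN2, at -2.45 ± 0.48 (edgeR adjusted p = 0.0189), from low levels of 1.60 CPM in RW and 0.294 in aN1aN2 (1.68% of all genes called). Mat1a and Tdo2 are both mainly liver genes, and liver markers were lower in the same comparisons. Of 5 such markers (Alb, Apoa1, Apoa2, Ttr and Serpina1a), 4 were called lower in aJ1aJ2 and 5 in aN1aN2, with medians of -3.82 and -4.52. Their summed level was at 46.7 to 199.7 CPM in RW, 5.20 to 17.1 in aJ1aJ2 and 0.993 to 2.12 in aN1aN2. In RW at other times it was at 0.203 to 1.78 CPM (5 days) and 425 to 1954 CPM (7 days). The 5-day groups share the block of aN1aN2 at 15 hours, where block and antibody cannot be told apart. The part of this liver RNA in the Mat1a and Tdo2 differences was not tested.

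In the second 7-day set, 1 of 9 small-molecule methyltransferases was higher and 2 lower in aN1aN2aN3 than in aJ1aJ2, with a list median of -0.31 against -0.07 over all genes. Over all genes in this comparison 19.6% were called, 9.19% higher and 10.4% lower. Gnmt, which methylates glycine, was higher by 2.09 ± 0.31 (38.7 against 8.89 CPM, edgeR adjusted p = 0.00210). Nnmt, which methylates nicotinamide, was lower, at -1.85 ± 0.39 (9.13 against 32.2 CPM, edgeR adjusted p = 0.00956). Gamt, which makes creatine, was lower, at -1.93 ± 0.56 (edgeR adjusted p = 0.0324). Of the methyl donor cycle, Adk was lower, at -0.61 ± 0.18 (1 of 10 called, list median 0.16), and of the indole genes, Maob, a monoamine oxidase, was lower at -1.0 ± 0.16 (1 of 7, list median -0.69).

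Among 16 other GalNAc transferases in that set, 1 was called, against 19.6% of all genes. Galnt12 was higher in aN1aN2aN3 by 1.02 ± 0.26 (10.5 against 5.03 CPM, edgeR adjusted p = 0.0184), and the list median was -0.22. Of 7 enzymes that extend O-glycans, 2 were lower against 10.4% of all genes (list median -0.42): C1galt1, which adds galactose to the first sugar, at -0.73 ± 0.17, and its chaperone C1galt1c1 at -0.90 ± 0.19.

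Of 12 other docking proteins, 4 were higher and 1 was lower in aN1aN2aN3, against 9.19% and 10.4% of all genes, with a list median of -0.21. Irs2, the insulin receptor substrate, was higher by 1.53 ± 0.36 (91.2 against 30.9 CPM), Dok1 by 0.85 ± 0.18 (9.02 against 4.88) and Gab2 by 0.73 ± 0.21. Dok6, a neurally expressed family member, was lower, at -1.22 ± 0.35, the same direction as Dok5, at 0.660 against 1.49 CPM. Of 9 receptors upstream of docking proteins, 1 was higher and 2 were lower, against the same shares of all genes, with a list median of -0.18. Ntrk3, the neurotrophin-3 receptor, was lower, at -3.01 ± 0.31 (0.450 against 3.58 CPM, edgeR adjusted p = 0.000478), Ntrk2 was lower, at -0.91 ± 0.17, and Igf1r was higher by 0.94 ± 0.23. In the first 7-day set and at 5 days, edgeR called 0 genes of these 7 lists. The lists there held 0 to 4 genes each with an unadjusted p below 0.05, and DESeq2 called 0 or 1 gene in each. Over all genes at 5 days, an unadjusted edgeR p below 0.05 was found for 2167 (aJ1aJ2 against RW), 1848 (aN1aN2 against RW) and 778 (aN1aN2 against aJ1aJ2) of 18434. In the first 7-day set it was found for 1968 of 16954. EdgeR called 0.179% of genes in the first of these comparisons and 0 in the others. DESeq2 called 477, 486, 76 and 476 genes in the same order.

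The label was checked against 16 fibroblast markers by likeness across libraries, as Pearson's r of log2(CPM + 1) after each group's mean was taken out, over 50 libraries that share preparation and depth differences. Inmt had a median r of 0.41 to these markers (0.01 over all genes), with r above 0 for 15 of 16. Galnt15 had a median r of 0.49 (0.03 over all genes), above 0 for 14 of 16. For Dok5 the median r was 0.13 (-0.01 over all genes), and 0.07 without the low-Tg libraries. These values give little ground to call Dok5 stromal here. Other cell types moved too: Galnt15 had a median r of 0.53 to 9 skeletal muscle markers and -0.57 to thyrocyte markers, and Inmt a median r of 0.40 to 5 Schwann cell and 0.33 to 5 macrophage markers. Their part in the results was not tested.

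**Figure D3:**
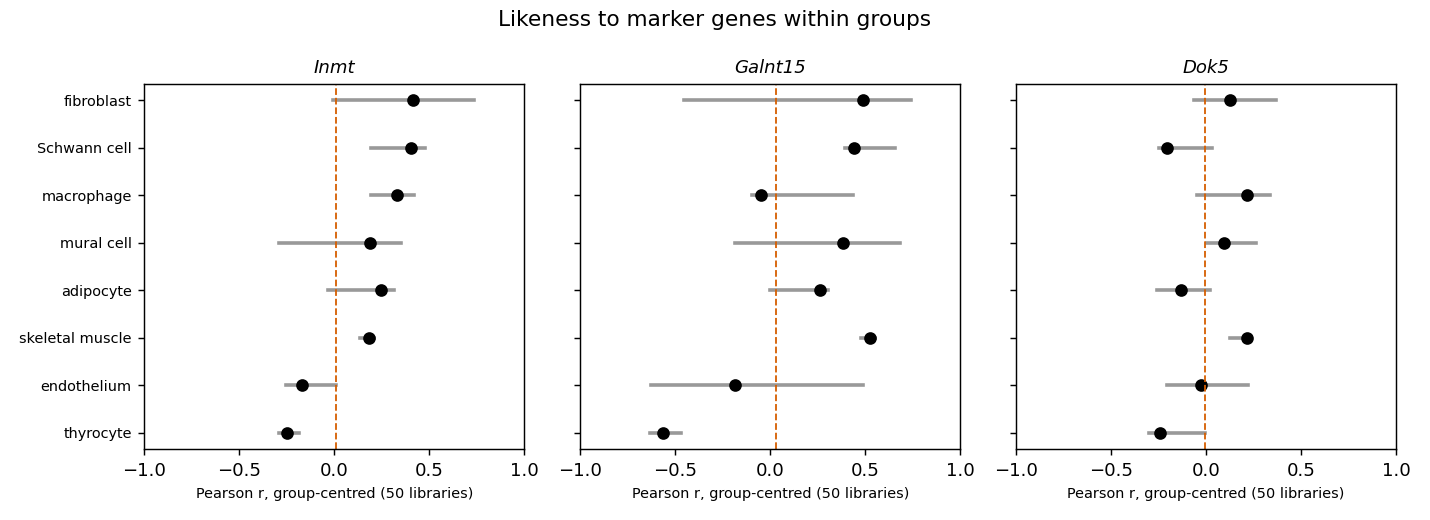
Likeness (group-centred Pearson r over 50 libraries) of each gene to each marker list, with a dot at the list median, a bar from its lowest to its highest r and a dashed line at the median over all genes. For the fibroblast list the dots stand at 0.41 for Inmt, 0.49 for Galnt15 and 0.13 for Dok5.

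Of 16175 genes ranked, the 5 most like Inmt were Dcn (decorin, a matrix proteoglycan of fibroblasts, r = 0.73), C1ra (0.73), Adh1 (0.72), Serping1 (0.72) and C1s1 (0.72). C1ra and C1s1 are proteases of the first complement component, and Serping1 is their inhibitor. The 5 most like Galnt15 were Lvrn (0.82), Xdh (xanthine dehydrogenase, 0.81), Adgrd1 (an adhesion receptor, 0.80), Osr1 (a transcription factor of connective tissue, 0.80) and Pamr1 (0.79). The 5 most like Dok5 were Hspbp1 (0.69), Slc35c2 (0.68), Rnasek (0.65), Serpinh1 (a collagen chaperone, 0.65) and Dapk3 (0.64). Ranked by Spearman's rho, 4, 3 and 1 of these 5 genes stayed among the 5 highest, so the Dok5 neighbours depend most on the measure. Inmt and Galnt15 were alike at r = 0.56. Dok5 stood at -0.10 to Inmt and -0.18 to Galnt15. The latter was at -0.44 in 1 block of libraries (by the ratio of counts to FPKM) and 0.32 in the other.

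The summed level of the fibroblast markers did not rise with Inmt and Galnt15 at 5 days, and overlapped between groups in the first 7-day set. A sum of CPM weighs the most abundant markers most. At 5 days the sum was at 1747 to 3833 CPM in RW and at 1300 to 1860 in aJ1aJ2, the group in which both genes were higher. Without the low-Tg libraries, which had the highest sum of each group in TMM-scaled CPM, the ranges were 1747 to 2570 and 1300 to 1567. These did not overlap. Of the 16 markers, edgeR called 0 there (7 had an unadjusted p below 0.05, and DESeq2 called 2), with a median log2 difference of -0.71 against -0.06 over all genes. In the first 7-day set the sum was at 1131 to 1826 CPM in RW and 1231 to 1678 in aJ1aJ2. EdgeR called 0 of the 16 markers (6 had an unadjusted p below 0.05, and DESeq2 called 2). Their median was 0.26, against 0.01 over all genes. Pdgfra was at a median of 36.2 CPM in RW (26.8 to 36.8) and 53.3 in aJ1aJ2 (36.7 to 70.4). Dcn was at 243 in RW (198 to 372) and 364 in aJ1aJ2 (333 to 570), so both overlapped. At 5 days the medians in RW and aJ1aJ2 were 78.2 and 56.8 for Pdgfra, and 436 and 463 for Dcn. Of all genes, 2167 of 18434 had an unadjusted edgeR p below 0.05 at 5 days, and 1968 of 16954 in the first 7-day set. In that set 9 skeletal muscle markers had a median of 1.67 and 5 Schwann cell markers a median of 0.97, both higher than over all genes. By edgeR 0 of either list were called. An unadjusted p below 0.05 was found for 0 muscle and 3 Schwann cell markers, and DESeq2 called 0 and 1. Their part in the Inmt and Galnt15 differences was not tested. In the second set, where Galnt15 was higher in aN1aN2aN3, 7 of 15 markers were lower and 0 higher, against 10.4% and 9.19% of all genes, with a median of -1.92 against -0.07, and the sum was at 734 to 1635 CPM against 1330 to 3246 in aJ1aJ2. Of 7 adipocyte markers, 4 were lower there too, with a median of -2.28.

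**Figure D4:**
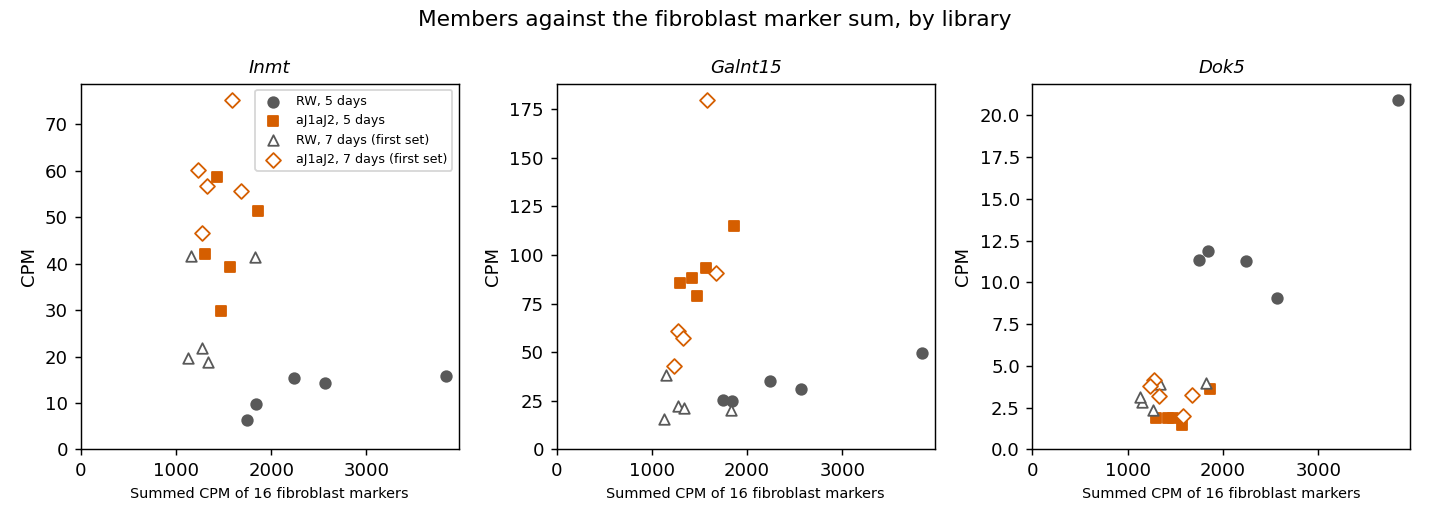
Level of each gene (CPM) against the summed level of 16 fibroblast markers (CPM) in the RW and aJ1aJ2 libraries at 5 days and in the first 7-day set. At 5 days the aJ1aJ2 libraries lie higher for Inmt (29.8 to 58.7 against 6.29 to 15.9 CPM) at marker sums of 1300 to 1860 against 1747 to 3833 CPM.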

How the data were processed

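RNA sequencing (single-end reads of 50 bases) was analysed from 50 thyroid libraries. The authors deposited a table of raw read counts per gene and a table of FPKM values. The submitters' processing notes name GSNAP and limma. What each tool did is not given in the sources used here, nor are the build, annotation, counting program and use of strand. Symbols came from GENCODE M21 by Ensembl ID (52403 of 52636 IDs). The exons of the 3 genes overlap 0 other genes there. All columns matched 1 library title. The smallest chi-square per degree of freedom among 100 replicate pairs was 17.1, so no pair looks like the same library sequenced again. It cannot show that the libraries came from separate mice. Each library was treated as its own replicate. The ratio of count to FPKM split the libraries into 2 blocks. The first holds 30 libraries and the second 20 (aN1aN2 at 15 hours and all 5-day groups). No label names these blocks, and whether their libraries were prepared apart is not known. FPKM was used only between genes of a library.

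Counts were tested with edgeR 4.0.16 in R 4.3.3 (TMM, filterByExpr with a minimum count of 10 and minimum total of 15, robust glmQLFit, glmQLFTest), by time or set, with two-sided p-values adjusted over all genes tested and a threshold of 0.05. The SE of an edgeR difference was derived from the test, as the size of the log2 fold change over the square root of its F statistic. The interaction was fitted over RW and aJ1aJ2 at 15 hours and in the first 7-day set. The code was tested on simulated data. The alternatives were DESeq2 1.42.0, RLE size factors, no filter, a replicate block, only the 2 groups compared, each library left out, and the 5-day fits without low-Tg libraries. Library totals without TMM were added after seeing the data.

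The 3 genes and all lists were chosen with earlier results of these data known. Named genes are the 3 genes, the 5 most like each among genes with a mean of at least 1 CPM, and up to 4 called genes of each list near them.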

Additional observations from a re-analysis of the deposited data

Results flagged for a closer look

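Among the 30 sets of 5 libraries (3 genes in 10 groups), 4 had a library farther from its neighbours than Dixon's 95% critical value of 0.71 allows, where chance gives about 1 in 20. Galnt15 in RW replicate 1 of the first 7-day set was at 38.2 CPM, against 15.8 to 22.3 in the other libraries of its group. Galnt15 in aJ1aJ2 replicate 5 of the second 7-day set was at 28.5 CPM, against 16.9 to 17.5. Dok5 in RW replicate 3 at 5 days was at 20.9 CPM, against 9.08 to 11.9. Dok5 in aJ1aJ2 replicate 3 at 5 days was at 3.64 CPM, against 1.49 to 1.91. The last 2 are the 5-day libraries low in Tg, which also had the highest summed muscle markers of their groups, at 264613 and 112538 CPM. All 4 flags rest on TMM-scaled CPM and were not tested on unscaled counts. The scaling raised levels more in RW replicate 3 at 5 days (Tg at 0.450% of counts and 7968 CPM) than in RW replicate 5 (40.3% and 491626 CPM).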

How the results depend on the processing

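Counts of genes called over the whole table moved with the method. For aJ1aJ2 against RW at 15 hours, 106 genes became 318 with DESeq2, 36 with the replicate block, 48 with only the 2 groups and 35 to 127 leaving out 1 library. For aN1aN2 against RW, 311 became 935 with DESeq2, 186 with the block and 120 to 444 leaving out 1 library. For aN1aN2 against aJ1aJ2, 24 became 557 with DESeq2, 11 with only the 2 groups and 9 to 44 leaving out 1. At 5 days, 33 genes for aJ1aJ2 against RW became 477 with DESeq2, 9 with no filter, 1 with the block, 16 with library totals, 0 with only the 2 groups, 242 without the low-Tg libraries and 0 to 197 leaving out 1. For aN1aN2 against RW at 5 days, edgeR called 0 (1848 at an unadjusted p below 0.05), DESeq2 486, and the fit without low-Tg libraries 74, with 0 to 9 leaving out 1. For aN1aN2 against aJ1aJ2 at 5 days, edgeR called 0 (778 at an unadjusted p below 0.05), DESeq2 76, and the fit without low-Tg libraries 3, with 0 to 1 leaving out 1. In the first 7-day set, edgeR called 0 (1968 at an unadjusted p below 0.05), DESeq2 476, the fit with no filter 20 and with library totals 2, with 0 to 20 leaving out 1. In the second set, 3614 became 2100 with the block and 2042 to 4305 leaving out 1. For the interaction, 58 became 380 with DESeq2, 38 with no filter, 26 with the block, 37 with library totals and 6 to 146 leaving out 1. The cause was not tested.

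Of the 3 genes, Inmt in aN1aN2 against RW at 15 hours changed sign to 0.00749 with RLE size factors, 0.0116 with DESeq2 and 0.0230 with no filter, and ranged from -0.21 to 0.12 leaving out 1 library. Galnt15 in aJ1aJ2 against RW at 15 hours ranged from -0.10 to 0.18 leaving out 1. Dok5 in the first 7-day set was -0.0724 with library totals and -0.0772 to 0.15 leaving out 1. DESeq2 called Inmt (1.04) and Galnt15 (1.88) in the first 7-day set, and both in the interaction (1.34 and 1.85), where Galnt15 ranged from 1.41 to 2.06 leaving out 1. Replicate numbers did not pair the samples: same-numbered libraries had r from -0.69 to 0.81, and 0 of 8 comparisons met the pairing rule. With the replicate block, Dok5 in the second 7-day set was at -2.15 with an edgeR adjusted p of 0.0578, no longer called. Library totals moved the median of all genes for aJ1aJ2 against RW at 5 days from -0.06 to 0.16. Of the 5 genes most like each, 4 (Inmt), 3 (Galnt15) and 1 (Dok5) stayed by Spearman's rho, and 5, 5 and 3 without the low-Tg libraries. Low counts limit Dok5 most.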
